A study of Homo sapiens with 6 samples.

Results

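Small nucleolar RNA host genes were examined in MDA-MB-231 cells, a human line derived from a breast adenocarcinoma, with and without ionizing radiation. The members were all rows of the expression table named SNHG followed by a number, together with GAS5 and ZFAS1. This gave 27 rows with 26 names among 58735 rows, since SNHG28 is listed under 2 identifiers. RNA from 3 samples kept at 0 Gy was compared with RNA from 3 samples taken 24 h after 10 Gy from a 137Cs source at 1.7 Gy/min. All 6 samples carry SCR in their names, which the study uses for the non-targeting shRNA, and the labels give their genotype as WT, so the shRNA would be shared by both groups. The labels do not say whether replicates came from separate cultures, so the p-values below measure only the spread between these samples. The values are FPKM, which divide the fragments of a gene by its length in kilobases and by library depth.

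The reads recovered from the FPKM summed to between 15643641 and 28861781 per library, with 0 Gy replicate 2 and 10 Gy replicate 2 the shallowest. The line's markers were present, with a mean of 301 FPKM for VIM, 78.6 for CD44 and 29.8 for EGFR at 0 Gy, while ESR1 and PGR were at or near 0. These came from a list of 5 markers chosen as absent or low. That list summed to between 8.61 and 9.82 FPKM per library, so not all of it was absent. Markers of blood, endothelial and liver cells summed to between 1.31 and 2.08 FPKM per library. Nearly all of that sum was PECAM1, which rose from 1.22 to 1.94 FPKM. CD3E was at 0 in every library. The part of other cells in the results below was not tested.

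Small nucleolar RNAs (snoRNAs) guide the chemical modification of ribosomal RNA. The box C/D class directs methylation of ribose, the H/ACA class directs conversion of uridine to pseudouridine, and the related scaRNAs act on spliceosomal RNAs in Cajal bodies. In human cells most snoRNAs are cut from introns of a longer transcript after splicing. In the SNHG genes the spliced exons encode no known long protein, and a product usually named as functional is the snoRNA cut from the intron. Several of these spliced RNAs are substrates of nonsense-mediated decay, and many begin with a 5' terminal oligopyrimidine (TOP) tract, a C followed by a run of pyrimidines, as do the mRNAs of ribosomal proteins.

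A snoRNA of each of the 4 members called lower in the comparison below, and of SNHG25, is shown first, because snoRNAs are what these genes are known for. The sequences were taken from GENCODE 29 transcripts on GRCh38. Capitals mark TGATGA, the C box, and the last CTGA, the D box, in box C/D snoRNAs, and the last ACA in H/ACA snoRNAs.
SNORD60, held by SNHG19 (chr16:2155023-2155105, minus strand): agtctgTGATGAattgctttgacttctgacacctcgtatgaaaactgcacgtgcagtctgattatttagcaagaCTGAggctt
SNORA17A, held by SNHG7 (chr9:136726747-136726879, minus strand): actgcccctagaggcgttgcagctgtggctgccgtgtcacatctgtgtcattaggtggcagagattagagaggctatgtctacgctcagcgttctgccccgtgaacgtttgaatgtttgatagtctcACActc
SNORA9, held by SNHG15 (chr7:44985378-44985510, minus strand): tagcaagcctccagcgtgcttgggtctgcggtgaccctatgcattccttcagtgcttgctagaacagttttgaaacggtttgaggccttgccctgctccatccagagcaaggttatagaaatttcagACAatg
SNORA71C, held by SNHG17 (chr20:38429670-38429803, minus strand): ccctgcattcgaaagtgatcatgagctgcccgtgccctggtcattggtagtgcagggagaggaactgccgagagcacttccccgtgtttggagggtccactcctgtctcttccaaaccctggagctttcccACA
SNORD104, held by SNHG25 (chr17:64146083-64146152, plus strand): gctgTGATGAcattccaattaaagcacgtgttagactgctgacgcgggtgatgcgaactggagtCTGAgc
Of the 17 box C/D rows with a sequence read here that are held by members past the expression filter, 10 contain TGATGA and 17 contain CTGA. Of 20 H/ACA rows with a sequence, 11 have an ACA exactly 3 bases from the end.

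The start sites are shown next, because a TOP tract would be read from the first bases of the transcript. Each window runs from 20 bases before the RefSeq start to 30 bases from it on, in GRCh38.p14. Capitals mark a C within 5 bases of the start followed by at least 4 bases that are each C or T, searched on the strand of the gene only.
SNHG19 (chr16:2155329-2155378, minus strand): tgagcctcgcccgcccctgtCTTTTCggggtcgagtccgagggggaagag
SNHG7 (chr9:136728155-136728204, minus strand): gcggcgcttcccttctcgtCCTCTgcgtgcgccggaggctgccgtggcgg
SNHG17 (chr20:38435299-38435348, minus strand): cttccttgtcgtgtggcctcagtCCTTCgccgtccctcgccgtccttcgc
SNHG4 (chr5:139274081-139274130, plus strand): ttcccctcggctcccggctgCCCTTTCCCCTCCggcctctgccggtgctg
SNHG5 (chr6:85678704-85678753, minus strand): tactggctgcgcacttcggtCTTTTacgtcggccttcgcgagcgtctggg
SNHG8 (chr4:118278742-118278791, plus strand): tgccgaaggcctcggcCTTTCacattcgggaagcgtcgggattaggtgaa
GAS5 (chr1:173869016-173869065, minus strand): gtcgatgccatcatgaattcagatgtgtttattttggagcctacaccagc
SNHG1 (chr11:62855856-62855905, minus strand): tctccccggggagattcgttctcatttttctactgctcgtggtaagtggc
The RefSeq start and the start in the expression table's annotation were 0 bases apart for SNHG19 and SNHG7, 1 for SNHG4, 15 for SNHG5, 25 for SNHG17, 29 for SNHG1, 53 for SNHG8 and 163 for GAS5. A tract by this rule was found in 10 of the 22 host gene names with a promoter in the reference, which is 45.5%. Among host genes past the expression filter it was found in 9 of 15, or 60%. SNHG6, SNHG9, SNHG15 and SNHG25, also past that filter, had no promoter in the reference. The share was 75.4% in 69 ribosomal protein genes, 18.8% in 2411 other noncoding genes and 21.1% in all 27305 promoters. These comparison sets were not filtered by expression, so the 45.5% of host gene names is the like figure to set beside them. The windows of GAS5 and SNHG1 hold no such match, which says only that these letters are not there under this rule.

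The level of these RNAs in unirradiated cells spanned from the range of well expressed mRNAs to no reads at all. A mean of at least 1 FPKM over the 6 libraries, the filter used for the test, was reached by 19 of the 27 rows. The lowest row inside it was SNHG26 at 1.39 FPKM, and the highest row outside it was SNHG21 at 0.975 FPKM. Of the exon bases of SNHG21, 72.9% are shared with other rows, so its place outside the filter may depend on how shared bases were counted. SNHG5, which holds the box C/D snoRNA SNORD50B, had the highest level, with 78.2, 64.0 and 69.1 FPKM in the libraries at 0 Gy. SNHG8, the host of SNORA24, followed with 63.1, 51.5 and 60.7 FPKM. GAS5, growth arrest-specific 5, whose spliced RNA is known to accumulate when growth stops, had 51.4, 50.5 and 50.7 FPKM. The libraries of SNHG5 all lay above those of SNHG8, by less than the SD within either gene at the closest point.

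SNHG6, which holds SNORD87, had 52.0, 45.3 and 46.3 FPKM at 0 Gy, a range that includes all 3 values of GAS5. SNHG1, the host of a cluster of box C/D snoRNAs, had 34.0, 32.4 and 32.9 FPKM. SNHG19, the host of SNORD60, had 31.7, 28.2 and 30.1 FPKM, below SNHG1 in each library. The next pairs in the order overlapped between libraries at several points. SNHG3 at 13.6 FPKM ± 1.76 (SD, n = 3) and SNHG17 at 13.3 ± 0.758 (SD, n = 3) did not differ beyond their spread, nor did SNHG16, SNHG4 and SNHG15, whose means were 10.2, 9.66 and 9.26 FPKM. The other members past the filter ranged from 1.3 to 20.5 FPKM.

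**Figure D1:**
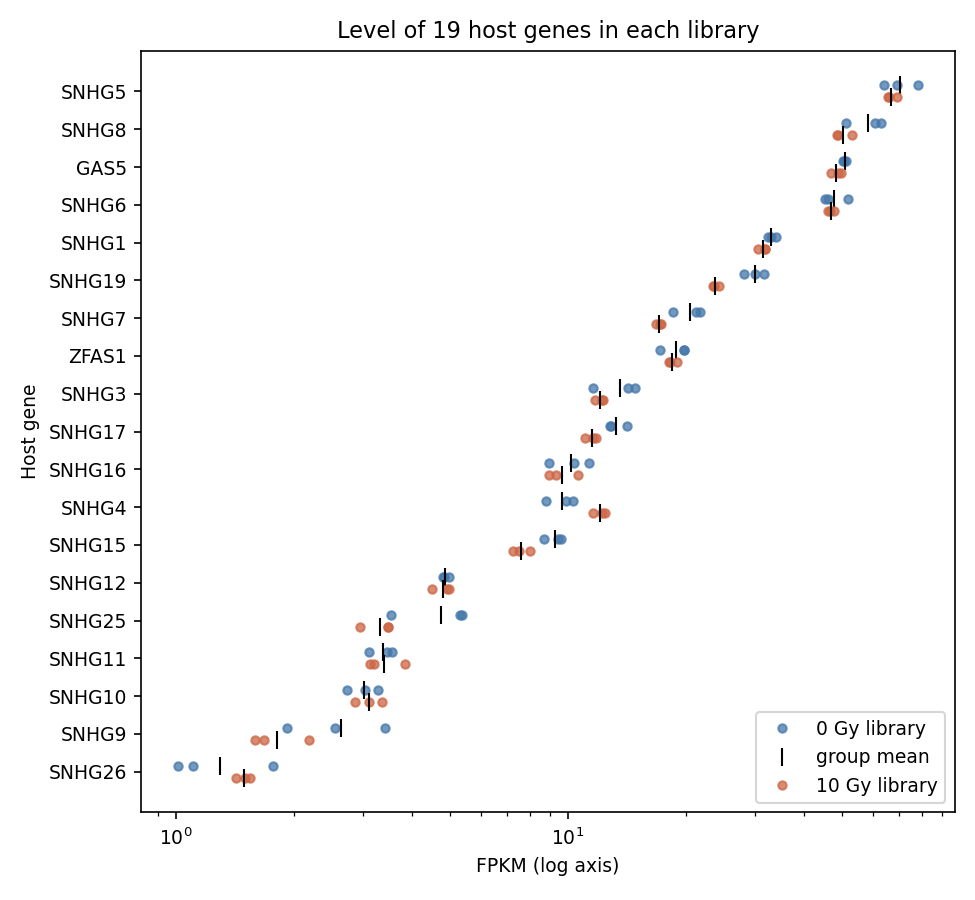
FPKM (horizontal log axis) of the 19 host genes past the filter (vertical axis) in each of the 6 libraries, with 0 Gy points above 10 Gy points and a bar at each group mean. Levels run from 1.3 FPKM for SNHG26 to 70.5 FPKM for SNHG5 at 0 Gy, and the groups separate visibly for SNHG19, SNHG7 and SNHG4.

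Together the 27 rows took 429, 383 and 411 FPKM at 0 Gy and 376, 372 and 382 FPKM at 10 Gy. As a share of all FPKM in the library this was 0.154%, 0.141% and 0.153% at 0 Gy, against 0.152%, 0.151% and 0.150% at 10 Gy. The summed FPKM was thus lower in every irradiated library, while the shares overlapped. The 5 highest rows held between 63.1% and 65.2% of the members' FPKM in each library.

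The 8 rows below the filter ranged from 173 reads in a library to 0. SNHG20 had a mean of 0.803 FPKM from 67 to 173 reads per library, and SNHG21 had 15 to 29 reads. The protein-coding row of SNHG28 had 8 to 16 reads, SNHG27 had 0 to 6, and SNHG22 had 0 or 1. SNHG14, the long transcript antisense to UBE3A that carries the imprinted SNORD115 and SNORD116 clusters, had 2 to 15 reads over 43324 exon bases, and the 71 of its 84 snoRNA rows that lie wholly in introns had 0 reads. SNHG18 had 0 reads in all libraries, which allows up to 0.0514 to 0.10 FPKM by the same floor of 3 reads. The other SNHG28 row was also at 0, and 100% of its exon bases are shared with the first SNHG28 row on the same strand. These limits cover counting error only.

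How reads over shared bases were counted bears on these levels. Of 710 rows whose exons lie wholly within exons of genes on the other strand, 0 had a read, and of 1139 rows wholly shared with genes on the same strand 48 had any, with at most 10 reads. Among 41758 rows with no shared base, 47.5% had reads. Host genes overlap other genes often, and 7 of the 19 past the filter share over 20% of their exon bases with some other row on either strand, snoRNA rows included. The share was 48.6% for SNHG25, 46.9% for ZFAS1, 36.4% for SNHG6, 33.4% for SNHG16 and 31.4% for SNHG7, while SNHG19 and SNHG26 share no base. Divided by the bases that no other row shares, a level chosen after these values were seen, SNHG6 came first at 75.3, before SNHG5 at 72.3 and SNHG8 at 68.1, and ZFAS1 stood at 35.7 in place of 18.95, ahead of SNHG19 at 29.98. The order of the 4 highest genes therefore depends on how shared bases are treated. The division uses the same factor in every library, so it leaves a gene's FPKM ratio between groups as it was by construction. Whether counting the reads over shared bases in another way would alter a change between groups was not tested.

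After 10 Gy, 14 of the 19 host genes past the filter were not called on the deposited scale, which does not show that their levels were unchanged. The FPKM of SNHG19, SNHG15, SNHG7 and SNHG17 fell and that of SNHG4 rose, and these calls on the deposited scale are read against the scaling of the libraries further on, under which the direction of SNHG17 flips with upper quartile scaling. By limma on log2(FPKM + 1), with Benjamini-Hochberg adjustment over 12128 genes, 4 of 19 members (21.1%) were called lower and 1 (5.26%) higher at an adjusted p under 0.05. In all genes tested, 23.7% were called lower and 11.9% higher, so the members' shares were near the background. At a change of at least 1.3-fold, 2.95% of genes were called lower and 2.82% higher, and the largest called change among the members, that of SNHG19, was 1.25-fold lower on the FPKM + 1 scale, short of that size.

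SNHG19 had 31.7, 28.2 and 30.1 FPKM at 0 Gy and 23.6, 24.3 and 23.5 FPKM at 10 Gy. The groups were well apart, and the irradiated libraries were within 1.04-fold of each other. The change was -0.32 on the log2(FPKM + 1) scale (SE 0.0454, adjusted p = 0.00268 by limma with Benjamini-Hochberg adjustment), or 0.801-fold with a 95% interval of 0.744 to 0.863. With 148 to 241 reads per library, SNHG19 was the least covered of the called members, since its exons span only 342 bases.

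SNHG15, the host of SNORA9, had 9.46, 8.69 and 9.63 FPKM at 0 Gy against 8.03, 7.24 and 7.52 FPKM at 10 Gy. All irradiated libraries were below all controls. The change was -0.25 (SE 0.0525, adjusted p = 0.00991 by limma with Benjamini-Hochberg adjustment), or 0.838-fold. SNHG7, the host of SNORA17A and SNORA17B, had 21.8, 18.5 and 21.2 FPKM at 0 Gy and 17.2, 16.8 and 17.3 FPKM at 10 Gy. The groups did not overlap, with 0 Gy replicate 2 the control nearest to the irradiated libraries. The change was -0.25 (SE 0.0583, adjusted p = 0.0163 by limma with Benjamini-Hochberg adjustment), or 0.843-fold.

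SNHG17, which holds part of the SNORA71 family, had 12.9, 12.8 and 14.2 FPKM at 0 Gy and 11.6, 11.1 and 11.8 FPKM at 10 Gy. Again the groups did not overlap, but the gap between them was smaller than the range of the controls. The change was -0.19 (SE 0.0473, adjusted p = 0.0195 by limma with Benjamini-Hochberg adjustment), or 0.876-fold. The calls of SNHG7 and SNHG17 were lost when single libraries were left out. Without 10 Gy replicate 1 their adjusted p by limma was 0.0502 and 0.0561, without 10 Gy replicate 2 it was 0.0605 and 0.0726, and in either case 2 rather than 4 members were called lower. SNHG7 was also not called without 0 Gy replicate 3 (adjusted p = 0.0506 by limma).

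SNHG4, the host of SNORA74A, was the member called higher. It had 10.3, 8.78 and 9.89 FPKM at 0 Gy and 12.4, 11.6 and 12.2 FPKM at 10 Gy, from 603 to 1663 reads. Every irradiated library was above every control. The change was 0.30 (SE 0.0587, adjusted p = 0.00838 by limma with Benjamini-Hochberg adjustment), or 1.23-fold with a 95% interval of 1.12 to 1.35. Of its exon bases, 14.01% are shared with MATR3 on the same strand and 2.64% with SIL1 on the other strand. The overlapping MATR3 row was near 0, with 0.00738, 0.0102 and 0.0363 FPKM at 0 Gy and 0.0631, 0.0690 and 0.0218 FPKM at 10 Gy. SIL1 went the other way from SNHG4, from 11.8 to 10.1 FPKM (change -0.20, SE 0.0399, adjusted p = 0.00867 by limma). What part the shared bases have in the rise of SNHG4 was not tested.

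**Figure D2:**
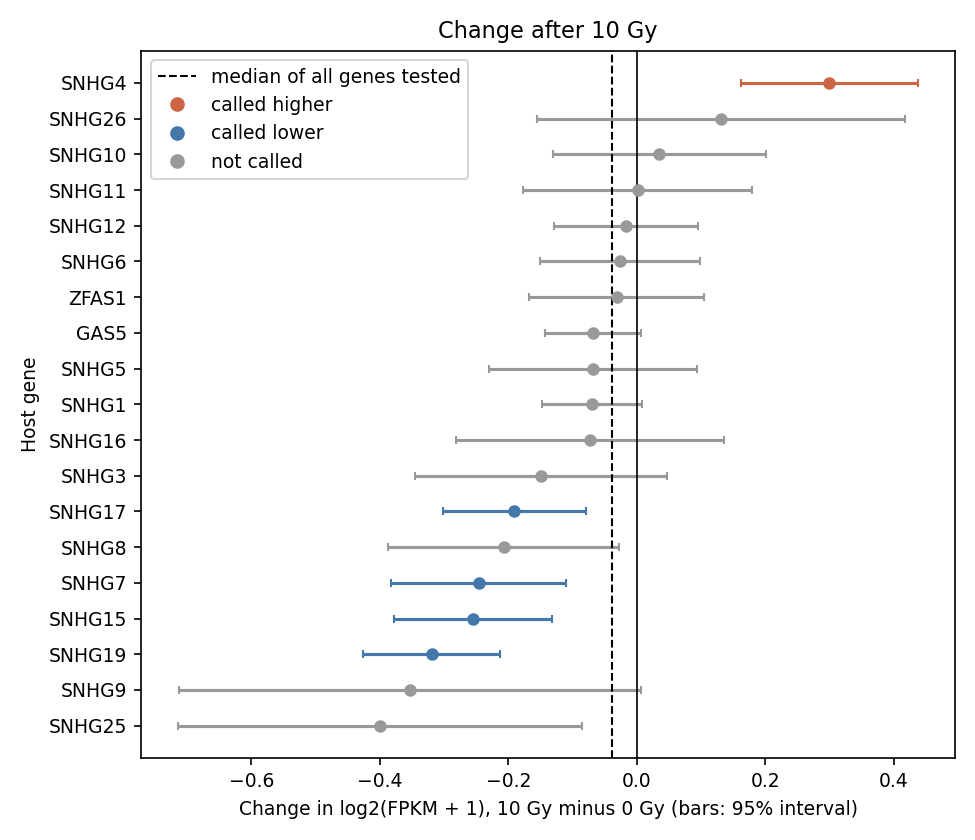
Change in log2(FPKM + 1), 10 Gy minus 0 Gy (horizontal axis), of 19 host genes (vertical axis) with 95% intervals from limma, coloured by call, and a dashed line at the median of all genes tested, -0.04. SNHG4 lies to the right of both lines at 0.30, SNHG19, SNHG15, SNHG7 and SNHG17 lie to the left between -0.32 and -0.19, and the intervals of SNHG25 and SNHG9 are the widest.

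The most abundant members were not called. SNHG5 had 65.5, 66.1 and 69.2 FPKM at 10 Gy, inside the range of its controls (change -0.07, SE 0.0690, adjusted p = 0.468 by limma with Benjamini-Hochberg adjustment). SNHG6 had 48.0, 46.7 and 46.1 FPKM at 10 Gy and a change of -0.03 (SE 0.0530, adjusted p = 0.723 by limma). SNHG8 had 48.8, 49.0 and 53.2 FPKM at 10 Gy, where 10 Gy replicate 3 exceeded 0 Gy replicate 2 (change -0.21, SE 0.0766, adjusted p = 0.0722 by limma). The interval of SNHG8 reached from 0.765-fold to 0.981-fold, so a fall as large as that of the called members was not distinguished from a small one. SNHG8 was called when the filter was set at 5 FPKM (adjusted p = 0.0414 by limma), which tests fewer genes. Without 0 Gy replicate 2, the change of SNHG8 was -0.29 and was called (adjusted p = 0.00861 by limma), as was that of SNHG3 (-0.25, adjusted p = 0.00784).

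GAS5 had 46.9, 48.9 and 49.7 FPKM at 10 Gy. Its irradiated libraries were all just below its controls, whose values differed by 1.02-fold at most. The change was -0.07 (SE 0.0320, adjusted p = 0.136 by limma with Benjamini-Hochberg adjustment), and its 95% interval of 0.905-fold to 1.00-fold reaches from a fall of 9.46% to a rise of 0.471% on the deposited scale. Under TPM scaling its change was 0.058 and under upper quartile scaling 0.18, neither called (adjusted p = 0.152 and 0.110 by limma). SNHG1 behaved alike in size, with 31.9, 32.0 and 30.7 FPKM at 10 Gy, below all controls (change -0.07, SE 0.0331, adjusted p = 0.138 by limma), and an interval of 0.903-fold to 1.01-fold.

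Counted by overlap alone, 7 of the 19 members had all irradiated libraries below all controls and 1 had them above, against 32.8% and 19.1% of all genes tested. The 7 were the 4 called lower, GAS5, SNHG1 and SNHG25. SNHG25, the host of SNORD104, had 3.54, 5.38 and 5.31 FPKM at 0 Gy and 3.49, 2.96 and 3.49 FPKM at 10 Gy. Its point estimate was the lowest of all members, -0.40 (SE 0.134, adjusted p = 0.0530 by limma), but 0 Gy replicate 1 nearly touched the irradiated libraries and no library had more than 32 reads. Without 0 Gy replicate 1 it was called, at -0.56 (adjusted p = 0.00340 by limma). SNHG9, with 16 to 36 reads, changed by -0.35 (SE 0.153, adjusted p = 0.112 by limma) with overlapping groups, and was called only without 0 Gy replicate 3, at -0.50 (adjusted p = 0.0341 by limma). The remaining uncalled members past the filter, ZFAS1, SNHG3, SNHG16, SNHG12, SNHG11, SNHG10 and SNHG26, had changes between -0.15 and 0.13 on the log2 scale, and adjusted p between 0.202 and 0.994 by limma.

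The spread among controls was not even. The shallow 0 Gy replicate 2 was the lowest control for 13 of the 19 members, while it was lowest for 32.1% of all genes tested. Its members summed to 0.0977% of its reads, against 0.106% and 0.107% in the other controls and 0.102% to 0.103% in the irradiated libraries. Values without it are given above where a call changes.

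The direction of small changes depended on how libraries were scaled. The deposited FPKM were divided by depths of 0.973 to 0.991 times the recovered reads in the libraries at 0 Gy and 1.03 to 1.04 times in those at 10 Gy, and they summed to 269611 to 278380 at 0 Gy and 246920 to 254918 at 10 Gy. The median change of all genes was -0.04 as deposited, -0.03 under median-of-ratios scaling, 0.07 when every library was scaled to the same sum (TPM scaling) and 0.18 under upper quartile scaling. With the shift of 0.11 under TPM scaling, the split of called genes moved from 33.4% higher to 74.5% higher, and under upper quartile scaling, a shift of 0.22, to 97.0% higher. The members moved with it. Their median was -0.07 as deposited, 0.05 under TPM scaling and 0.18 under upper quartile scaling, and 15, 8 and 5 of the 19 were below 0.

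Subtracting the median of all genes removes most of a change of scale by construction, and the positions that remain are given here as a description. Relative to that median, SNHG19 lay at -0.28 as deposited, -0.26 under TPM and -0.25 under upper quartile scaling. SNHG15 lay at -0.22, -0.21 and -0.20, SNHG7 at -0.21, -0.19 and -0.18, and SNHG17 at -0.15, -0.14 and -0.13. SNHG4 lay at 0.34, 0.35 and 0.36 above it. GAS5 was at -0.03, -0.01 and 0.01, on either side of the median. In all, 12 of 19 members lay below the median as deposited and under TPM scaling, and 9 of 19 under upper quartile scaling.

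Calls against 0 were fewer once rescaled. Under TPM scaling 8.84% of genes were called lower and 25.8% higher by limma, and the members called were SNHG19, lower at -0.20 (adjusted p = 0.0128), and SNHG4, higher at 0.42 (adjusted p = 0.00200). The other called members were not called there, SNHG15 at -0.14 (adjusted p = 0.0831 by limma), SNHG7 at -0.12 (adjusted p = 0.112) and SNHG17 at -0.07 (adjusted p = 0.300). Under upper quartile scaling 120 of 12159 genes were called lower and 3935 higher. SNHG4 was called there, at 0.53 (adjusted p = 0.00144 by limma), while SNHG19 was at -0.07 (adjusted p = 0.575) and SNHG17 changed sign, to 0.047 (adjusted p = 0.716). SNHG4 was called in all 14 alternatives, SNHG19 in 13, SNHG15 in 12, SNHG17 in 9 and SNHG7 in 8.

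**Figure D3:**
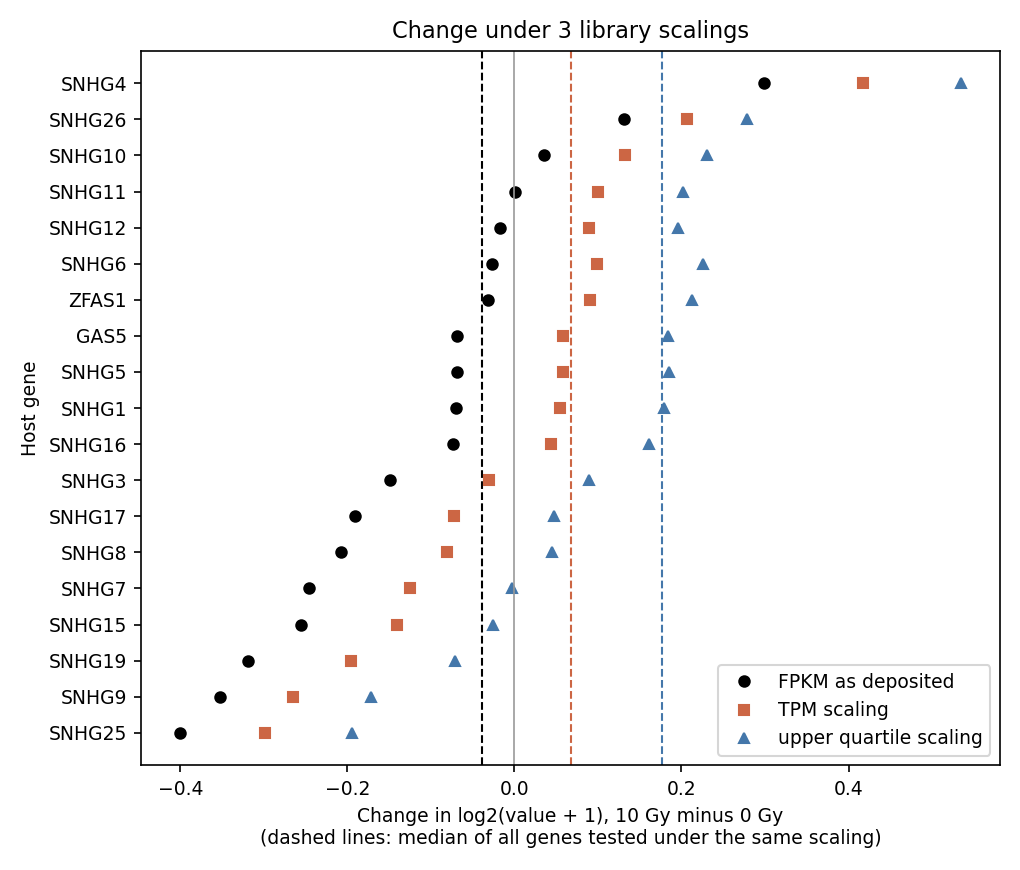
Change in log2(value + 1), 10 Gy minus 0 Gy (horizontal axis), of 19 host genes (vertical axis) under 3 library scalings, with dashed lines at the median of all genes under each scaling, -0.04, 0.07 and 0.18. All points move right together with the dashed lines, SNHG4 stays right of its line and SNHG19, SNHG15, SNHG7 and SNHG17 stay left of theirs.

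Several host genes share a start region with a protein-coding gene on the other strand, and the ratio of both within a library is free of the library's scaling. This ratio was examined in the 4 such pairs in which both genes passed the filter, after the values of both had been seen. The exact permutation test of 3 against 3 libraries cannot go below p = 0.1. SNHG1 starts 188 bases from SLC3A2, the heavy chain of the cystine and glutamate exchanger. SLC3A2 had 76.1, 71.6 and 72.0 FPKM at 0 Gy and 54.2, 54.3 and 54.9 FPKM at 10 Gy (change -0.42, SE 0.0332, adjusted p = 0.000586 by limma). The log2 ratio of SNHG1 to SLC3A2 was -1.15 ± 0.0164 (SD, n = 3) at 0 Gy and -0.79 ± 0.0439 (SD, n = 3) at 10 Gy, with no overlap (two-sided exact permutation p = 0.1, adjusted over 4 pairs 0.133). The ratio was higher in each irradiated library than in any control.

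ZFAS1 starts 248 bases from ZNFX1, a zinc finger helicase of antiviral defence, and 26.1% of its exon bases are shared with genes on the other strand. ZNFX1 had 16.2, 17.7 and 17.2 FPKM at 0 Gy and 22.8, 22.8 and 23.5 FPKM at 10 Gy (change 0.41, SE 0.0388, adjusted p = 0.000707 by limma). ZFAS1 itself had 19.8, 17.2 and 19.8 FPKM at 0 Gy and 18.2, 18.2 and 19.05 FPKM at 10 Gy (change -0.03, SE 0.0580, adjusted p = 0.699 by limma). The log2 ratio of ZFAS1 to ZNFX1 went from 0.15 ± 0.173 (SD, n = 3) to -0.32 ± 0.0142 (SD, n = 3), again with no overlap (two-sided exact permutation p = 0.1, adjusted 0.133).

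SNHG19 starts 340 bases from TRAF7, a ubiquitin ligase, which had 18.1, 18.3 and 18.3 FPKM at 0 Gy and 17.0, 16.4 and 16.6 FPKM at 10 Gy. The change of TRAF7 was -0.12 (SE 0.0292, adjusted p = 0.0160 by limma), and the log2 ratio of SNHG19 to TRAF7 went from 0.71 ± 0.0917 (SD, n = 3) to 0.51 ± 0.0488 (SD, n = 3) with no overlap (two-sided exact permutation p = 0.1, adjusted 0.133). SNHG9 starts 99 bases from RPS2, a protein of the small ribosomal subunit, which went from 776 to 635 FPKM (change -0.29, SE 0.0575, adjusted p = 0.00911 by limma). The ratio of SNHG9 to RPS2 overlapped between groups (difference -0.22, two-sided exact permutation p = 0.6, n = 3), and without 0 Gy replicate 2 its difference was 0.019.

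**Figure D4:**
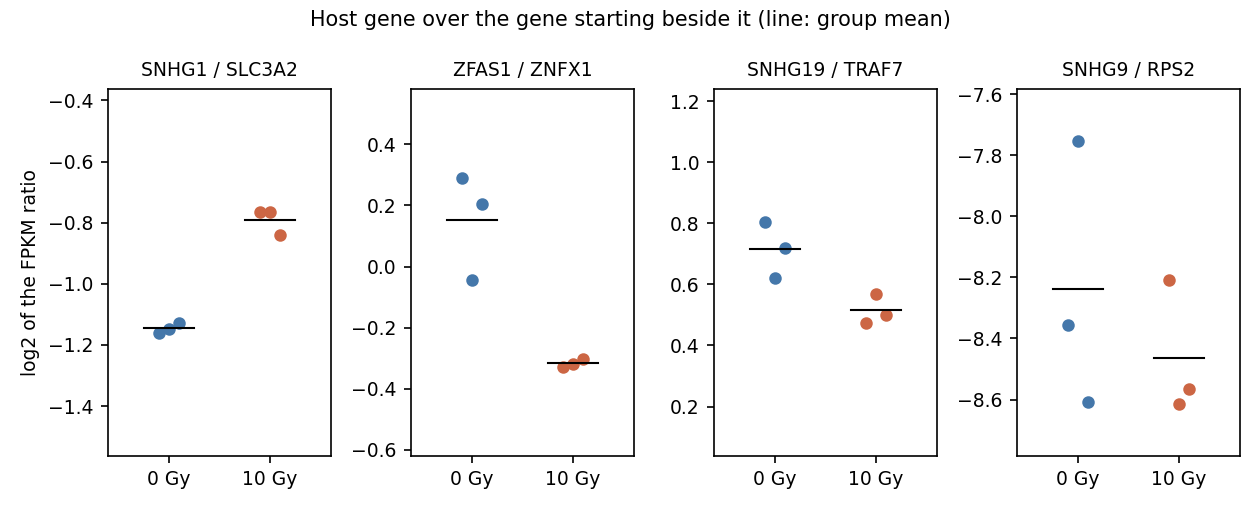
log2 of the FPKM ratio of a host gene to the gene starting beside it on the other strand (vertical axis, same span in each panel) in each library at 0 Gy and 10 Gy, with lines at group means. The ratio is higher after 10 Gy for SNHG1 over SLC3A2, lower for ZFAS1 over ZNFX1 and SNHG19 over TRAF7, and mixed for SNHG9 over RPS2.

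The snoRNA rows themselves held few reads, in libraries selected for polyadenylated RNA. Host genes past the filter hold 45 snoRNA rows in 18 hosts, of which 28 overlap a host exon and had 0 reads in every library. Rows that share all their bases with another gene almost never held reads in this table, so a 0 there sets no limit on the level of these snoRNAs. Of the 17 that lie wholly in introns, 15 had reads, 1531 in all. GAS5 holds no snoRNA row in this annotation. This is a limit of the annotation used and does not show that GAS5 hosts none, so any snoRNAs it holds are missing from the 45 rows. SNORD60 of SNHG19, printed above, shares its place with a second snoRNA row and had 0 reads. SNORD104 of SNHG25 had 46.2, 40.9 and 60.0 FPKM at 0 Gy and 35.4, 26.6 and 40.9 FPKM at 10 Gy, from 34 to 91 reads, and its groups overlapped narrowly. SNORA71C of SNHG17 had 47 to 102 reads and overlapping groups, with means of 24.3 and 22.1 FPKM, and its reads could be split with the closely similar SNORA71A and SNORA71D. SNORA74A of SNHG4 had 0, 0 and 1 reads at 0 Gy and 7, 2 and 4 reads at 10 Gy, too few for a fold. These values were not tested, and reads from a mature snoRNA and from the intron around it cannot be told apart here.

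Genes that act with snoRNAs were set beside the hosts. The 8 core proteins of snoRNPs, the particles that snoRNAs guide, were all expressed, and 7 of them were called lower by limma with a list median of -0.31. They include GAR1, a core H/ACA protein, which fell from 32.1 to 25.2 FPKM (change -0.34, SE 0.0412, adjusted p = 0.00159 by limma), and FBL, the box C/D methyltransferase, from 104 to 83.7 FPKM (change -0.31, SE 0.0526, adjusted p = 0.00465 by limma). DKC1, the pseudouridine synthase, went from 45.9 to 37.6 FPKM (change -0.28, SE 0.0479, adjusted p = 0.00484 by limma). Under TPM scaling 7 of the 8 were also called lower, at a median of -0.18, but under upper quartile scaling 0 were by limma, and 0 at an unadjusted p under 0.05. Of all 12159 genes tested under upper quartile scaling, only 120 were called lower. Of 10 factors that assemble snoRNPs, 3 were called lower, with NOLC1 falling from 107 to 91.9 FPKM (change -0.22, SE 0.0301, adjusted p = 0.00248 by limma), and 1 was called lower under TPM scaling, as well as without 10 Gy replicate 2 or 3.

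Of 82 tested cytosolic ribosomal protein genes, 56 (68.3%) were called lower by limma with a median of -0.18, and under TPM scaling 11 were, at a median of -0.06. Under upper quartile scaling, where 120 of all 12159 genes were called lower, 0 were by limma, and 0 at an unadjusted p under 0.05. The count was 17 without 10 Gy replicate 1, 16 without 10 Gy replicate 2, 36 without 10 Gy replicate 3 and 14 without a filter. RPL17 had the largest fall, from 4.02 to 2.77 FPKM (change -0.42, SE 0.0783, adjusted p = 0.00724 by limma). Of 17 other genes with a known TOP tract, 9 were called lower at a median of -0.13, led by NPM1, a nucleolar chaperone, from 404 to 336 FPKM (change -0.27, SE 0.0395, adjusted p = 0.00308 by limma), while TPM scaling gave 3 lower and 2 higher. Of these 17, 4 were called lower without 10 Gy replicate 1, without 10 Gy replicate 2 or without a filter, and 0 under upper quartile scaling, adjusted or not. The host genes, at 4 of 19 lower and a median of -0.07, had a smaller share of called falls than either list, a difference that was not tested.

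Of 194 tested protein-coding genes that hold a snoRNA, 76 (39.2%) were called lower and 22 (11.3%) higher, with a median of -0.08, and 28 of the 273 listed are ribosomal protein genes. The balance turned under TPM scaling, with 23 lower and 50 higher at a median of 0.028, and under upper quartile scaling, with 1 lower and 57 higher. Without 10 Gy replicate 1 there were 43 lower and 8 higher, without 10 Gy replicate 2 there were 43 and 9, and without 10 Gy replicate 3 there were 11 higher. The largest called changes among them were those of GMEB1, from 3.87 to 2.20 FPKM (change -0.61, SE 0.0884, adjusted p = 0.00290 by limma), and PPP1R13B, from 1.22 to 1.84 FPKM (change 0.36, SE 0.0654, adjusted p = 0.00649 by limma). Other noncoding genes were called in both directions, 85 of 738 (11.5%) higher and 68 (9.21%) lower, with a median of 0.04. Under TPM scaling 135 were higher and 33 lower, and under upper quartile scaling 219 and 14. The count called higher was 52, 41 and 55 without 10 Gy replicate 1, 2 and 3 in turn, and 37 were called lower without 10 Gy replicate 2. LAMA5-AS1 led these rises, from 0.584 to 2.00 FPKM (change 0.91, SE 0.161, adjusted p = 0.00576 by limma), and AC137630.3 the falls, from 1.91 to 0.808 FPKM (change -0.68, SE 0.188, adjusted p = 0.0286 by limma). Each reached the filter of 1 FPKM only through the group where it was high, so these changes are given as a description. The members' median of -0.07 thus lay near that of the protein-coding hosts on the deposited scale.

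Of 10 factors of nonsense-mediated decay, the pathway known to degrade several spliced SNHG RNAs, 3 were called lower and 1 higher by limma, with a median of -0.01. The balance turned under TPM scaling, with 2 lower and 3 higher, and under upper quartile scaling, with 0 lower (1 at an unadjusted p under 0.05) and 4 higher. SMG1, a kinase of the pathway, rose from 5.20 to 7.33 FPKM (change 0.43, SE 0.0894, adjusted p = 0.0101 by limma), and SMG9, a subunit of the same complex, fell from 13.1 to 9.61 FPKM (change -0.41, SE 0.0337, adjusted p = 0.000593 by limma). Of 10 proliferation markers, 8 were called higher as deposited and under TPM scaling. AURKA, a mitotic kinase, had the largest rise, from 93.5 to 132 FPKM (change 0.49, SE 0.0303, adjusted p = 0.000346 by limma).

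**Figure D5:**
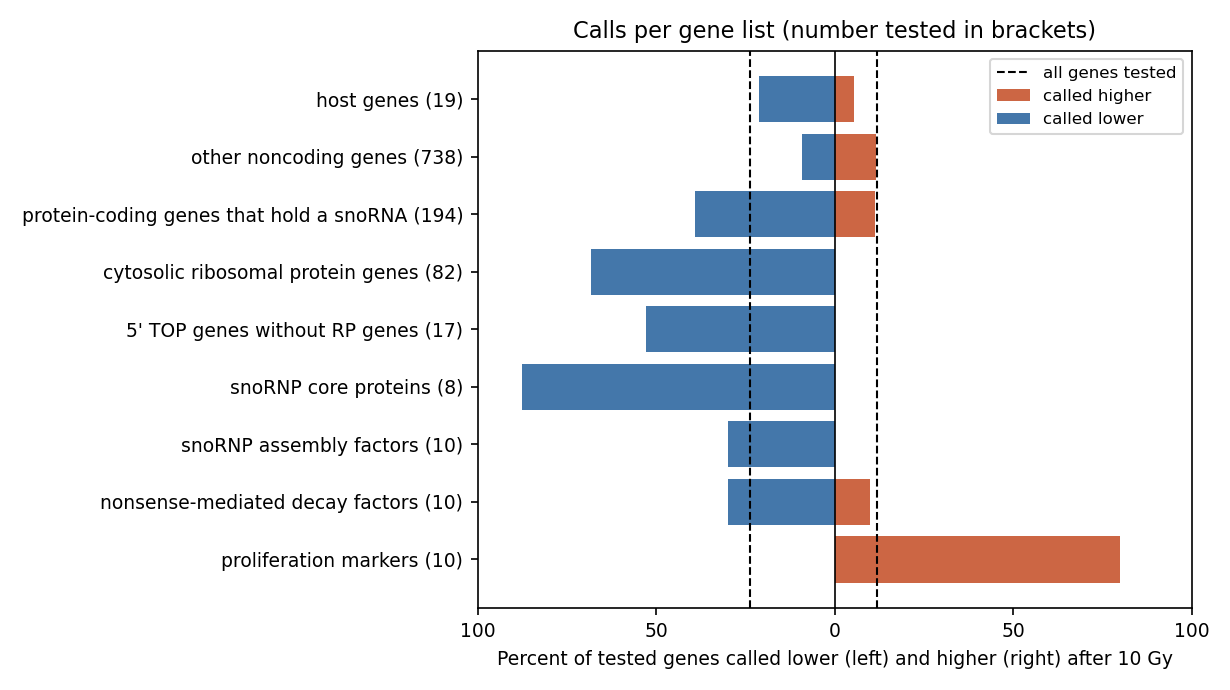
Percent of the tested genes of each list called lower (left) and higher (right) by limma after 10 Gy, with dashed lines at the shares of all genes tested, 23.7% and 11.9%. The host genes, at 21.1% lower and 5.26% higher, lie inside both lines, while snoRNP core proteins and ribosomal protein genes extend furthest left and proliferation markers furthest right.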

How the data were processed

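RNA was extracted from MDA-MB-231 cells, and Novogene prepared polyA-selected libraries, 3 at 0 Gy and 3 at 10 Gy, grouped by the labels' treatment. The authors deposited FPKM values per gene. The submitters' processing notes name HISAT2 and GRCh38, and the counting program is not given in the sources used here. Of 58735 rows, 58690 have the place of a GENCODE 29 gene and 58724 the length of its joined exons. Multiplied by length and implied depth, 100% of values above 0 gave whole reads within 0.05.

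Groups were compared in R 4.3.3 with limma 3.58.1 (eBayes with trend) on log2(FPKM + 1), a scale that understates changes of low genes, for 12128 genes whose average over the 6 libraries reached 1 FPKM. A gene was called when its Benjamini-Hochberg adjusted p lay below 0.05. The procedure was tested on simulated data. Values in every library are given for called members and the 6 highest at 0 Gy, and in each comparison list the called genes with the largest rise and fall are named. FBL, DKC1, SNHG25, SNHG9, SNHG3 and ZFAS1 were named in addition, after their values were seen. Neighbours overlap a member or start within 1000 bases on the other strand. Members and lists were chosen with earlier results of these data known. A marker gene and a snoRNA sequence are not reported here. Alternatives covered the pseudocount, filter, scaling, eBayes trend, replicate block and each replicate left out. Plots were made in matplotlib 3.10.9 under Python 3.11.15.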

Additional observations from a re-analysis of the deposited data

How the results depend on the processing

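With all libraries, 4317 genes were called, and 2651 to 3975 when each replicate was left out in turn. Host genes called higher numbered 1 under every other planned setting and 1 to 2 with a replicate left out, the second being SNHG26, at 0.27, without 0 Gy replicate 1. Host genes called lower numbered 4, and 2 to 6 with a replicate left out. They numbered 5 with the filter at 5 FPKM, where SNHG8 was added, and 2 without a filter on low genes. Under TPM scaling 1 was called lower, and under upper quartile scaling 0. At an unadjusted p under 0.05 by limma, upper quartile scaling gave 0 members lower and 6 of 19 higher. Of all 12159 genes tested under that scaling, 120 were called lower and 3935 higher, and 5584 had an unadjusted p under 0.05. The members' counts there are therefore not read as a result about them. The change of SNHG17 was 0.047 under upper quartile scaling, the one called change whose sign turned. The cause was not tested. The labels do not say whether replicate numbers pair the libraries. Deviations of same-numbered libraries correlated at -0.04, -0.03 and -0.10, and those of differently numbered libraries at -0.05 to 0.09. With so few libraries these values cannot settle the pairing. With the replicate block, 3503 genes were called, 1 host gene was called higher and 4 lower, and 19 of 19 members kept their call. The block leaves the size and direction of every change as they were by construction, so only calls could move. The block moved the count of ribosomal protein genes called lower from 56 to 32, of other TOP genes from 9 to 5 and of protein-coding hosts called higher from 22 to 11. SNHG25 and SNHG9 had at most 32 and 36 reads in a library, and what part depth has in their not being called was not tested.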
